A study of Mus musculus with 6 samples.

Results

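The tumour necrosis factor (TNF) superfamily was compared between AC29 and AB1, a pair of mouse malignant mesothelioma cell lines. Its members were taken by gene symbol: every gene named Tnfsf or Tnfrsf with a number, together with Tnf, Lta, Ltb and Fasl, where a probe set of the array carried that symbol and no other. That gave 30 genes of 18193 measured, 11 ligands and 19 receptors, on 49 probe sets. The RefSeq gene table holds 35 symbols of this form, and Tnfsf12, Tnfsf13, Tnfsf15, Tnfsf18 and Tnfrsf26, the 5 without a probe set of their own, have no value of their own here. A further 3 probe sets list several symbols and were assigned to no gene. Of these, the one that lists both Tnfsf12 and Tnfsf13 differed by 1.34 on the log2 scale, AC29 minus AB1 (adjusted p = 2.80e-05 in limma), the one that lists Tnfsf12 without Tnfsf13 by -0.13 (adjusted p = 0.396), and the one that lists Tnfrsf22 and Tnfrsf23 by -0.72 (adjusted p = 7.90e-05).

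AC29 comes from the CBA strain and was at passage 60, and AB1 comes from BALB/c and was at passage 40; the labels give female animals aged 6 to 8 weeks for both. Both are asbestos-induced tumour lines, kept as pure cultures without the leukocytes and stroma of a tumour, and neither received a treatment. 3′ expression arrays were hybridised with RNA of 3 AC29 flasks and 3 AB1 flasks harvested at 80% confluency, so that the spread is that between flasks of 1 line. Line, strain and passage coincide and cannot be told apart.

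TNF superfamily ligands are mostly trimeric proteins of the cell surface, and many are cut from it by proteases. Their receptors fall into death receptors, whose cytoplasmic death domain can assemble a caspase-activating complex, receptors that bind TRAF adaptors and switch on NF-kB, and decoys that bind a ligand without passing on the signal. Most of the family is known from lymphocytes and myeloid cells, while TNF itself is a well-studied signal in asbestos injury of the mesothelium.

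The deposited values were taken as log2 intensities from their range and from RMA being named in the submitters' processing notes; no header states the scale, on which every fold depends. A floor for detection, 6.07, was taken from 86 probe sets of smell and taste receptors as their 95th percentile. Calls needed both an adjusted p under 0.05 in limma and a 2-fold difference. Pearson's r across genes was between 0.995 and 0.997 within AC29, between 0.997 and 0.998 within AB1, and between 0.937 and 0.938 for pairs of unlike lines. AC29 replicate 14 lay apart from the other arrays on the second principal component, which held 2.86% of the variance. It also had the lowest of limma's array weights, 0.449. For the beta-actin control the 3′ minus 5′ probe set difference was 0.22 to 0.32 in AC29 and 0.12 to 0.18 in AB1. For the Gapdh control it was -0.14 to -0.10 in AC29 and -0.16 to -0.14 in AB1, so lower at the 3′ end on every array. Such differences bear on RNA quality, whose part in the results was not tested. Of 8 mesothelial markers 6 were called higher in AC29, and Wt1, Upk3b and Krt8 were not above the floor in AB1, whereas Msln and Krt18 were above it in both lines. Markers of macrophages, T cells, B cells and endothelium had 8 of 18 measured genes above the floor on some array, and 1 of the 18 was called. Ptprc, the CD45 antigen of all leukocytes, stayed under it in both (3.64 ± 0.15 in AC29 and 3.72 ± 0.15 in AB1, SD, n = 3 each). Some T-cell markers lay above the floor on every array of these pure cultures. Cd3e had means of 7.01 in AC29 and 6.83 in AB1, and Cd4 of 6.78 and 6.61, whereas Cd3d and Cd3g stayed under the floor. Values a little over the floor are therefore weak evidence that a gene is expressed.

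Just 3 of the 30 TNF superfamily genes were called. The death receptor gene Tnfrsf21 was higher in AC29, and the ligand gene Tnfsf11 and the decoy receptor gene Tnfrsf23 were higher in AB1. In RNA of whole cultures, fewer cells that carry a transcript and less of it per cell cannot be told apart. Over all genes 10.9% were called, 5.12% higher in AC29 and 5.82% higher in AB1, so the share of members called was near the background. Among the 11647 genes above the floor on some array, a filter that a gene can pass through its higher line alone, 16.4% were called, 7.68% toward AC29 and 8.7% toward AB1. Of the 13 members that passed the same filter, the 3 called made up 23.1%. The median log2 difference, AC29 minus AB1, was -0.016 over the members and -0.0047 over all genes. No overlap between AC29 and AB1 arrays was seen for 14 members (46.7%), against 50.1% of all genes, and 13 members (43.3%) passed the adjusted p alone, against 39.1% of all genes. The members not above the floor on any array numbered 17, or 56.7%, against 36% of all genes.

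**Figure D1:**
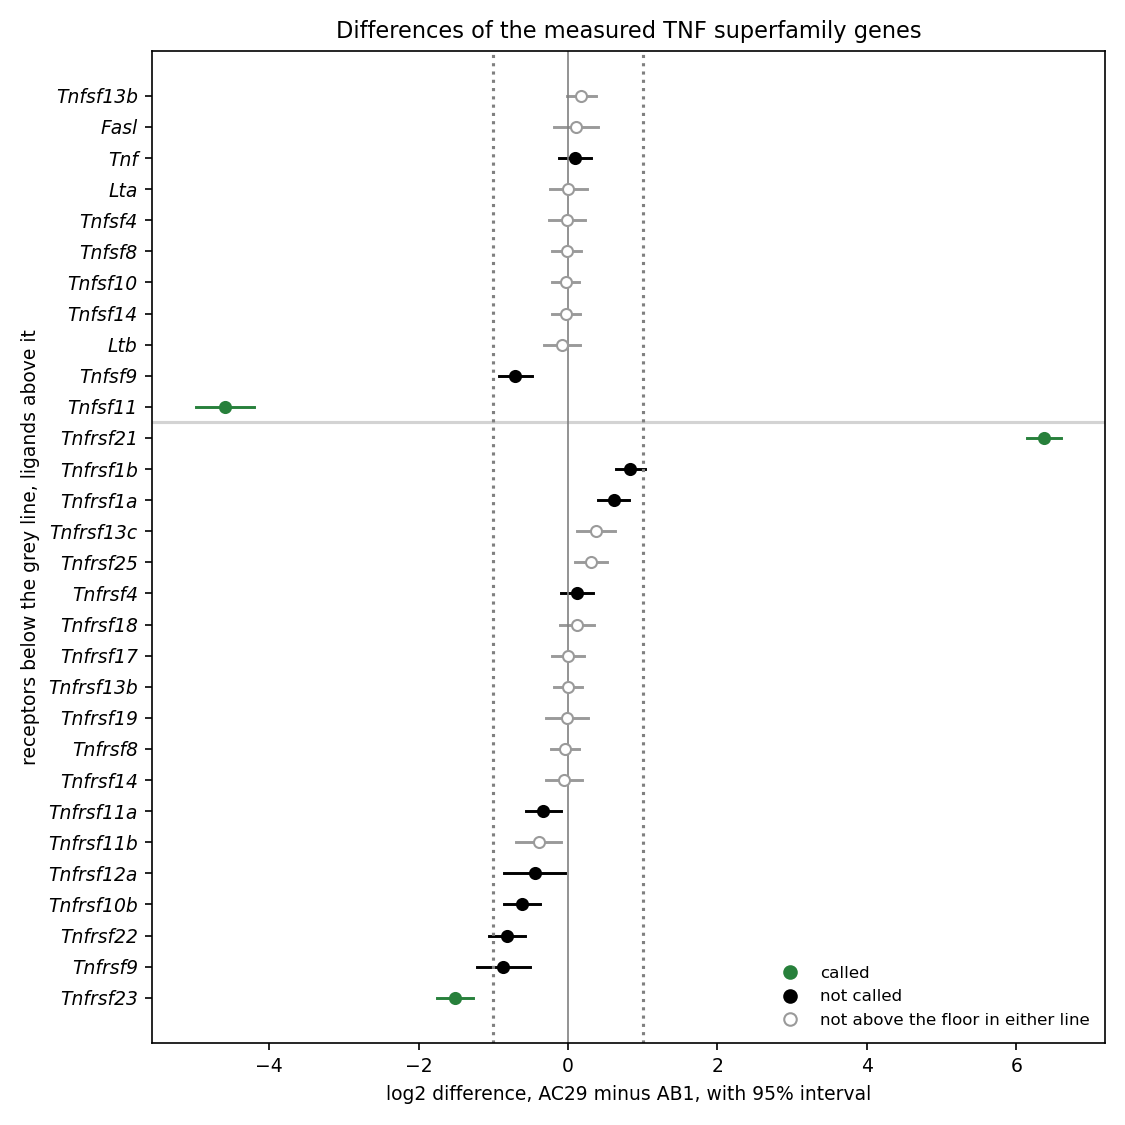
Log2 difference, AC29 minus AB1, of the 30 measured TNF superfamily genes, with 95% intervals from limma; dotted lines mark 2-fold. Green points are called, black points are not called and open points lay under the floor in both lines. Tnfrsf21 lies at 6.37 and Tnfsf11 at -4.59, and the 17 open points lie between -0.39 and 0.37.

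The promoters of the 3 called genes are shown because the differences between the lines are those of their transcripts. Each is the RefSeq window (build GRCm38.p6) from 250 bases before to 50 bases after the transcription start, written on the gene's strand. The windows are reference sequence, and the sequence of the CBA and BALB/c lines was not examined. They lie at chr17:43016305-43016604 on the plus strand for Tnfrsf21, chr14:78307994-78308293 on the minus strand for Tnfsf11 and chr7:143685826-143686125 on the minus strand for Tnfrsf23. Capitals mark matches, on either strand, to the TATA motif TATAAA or the GC box GGGCGG; all of these lie on the opposite strand and so appear as TTTATA and CCGCCC.
Tnfrsf21: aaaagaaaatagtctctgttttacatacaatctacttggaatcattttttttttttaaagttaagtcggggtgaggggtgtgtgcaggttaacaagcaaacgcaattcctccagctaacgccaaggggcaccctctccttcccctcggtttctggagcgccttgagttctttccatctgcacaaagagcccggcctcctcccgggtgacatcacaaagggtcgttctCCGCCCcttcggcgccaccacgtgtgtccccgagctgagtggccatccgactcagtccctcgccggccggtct
Tnfsf11: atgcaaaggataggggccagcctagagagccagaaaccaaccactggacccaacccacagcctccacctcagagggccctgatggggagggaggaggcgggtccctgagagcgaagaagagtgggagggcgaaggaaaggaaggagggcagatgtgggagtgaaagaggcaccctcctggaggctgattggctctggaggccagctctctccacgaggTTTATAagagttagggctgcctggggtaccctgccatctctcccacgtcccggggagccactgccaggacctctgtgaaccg
Tnfrsf23: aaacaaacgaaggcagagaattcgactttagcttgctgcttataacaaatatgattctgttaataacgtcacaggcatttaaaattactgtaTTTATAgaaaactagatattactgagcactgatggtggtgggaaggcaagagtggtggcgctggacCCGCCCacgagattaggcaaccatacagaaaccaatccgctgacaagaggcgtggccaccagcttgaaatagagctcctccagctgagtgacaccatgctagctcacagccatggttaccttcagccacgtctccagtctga

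The Tnfsf11 window held a TATA match from -32 to -27 and no GC box, the Tnfrsf21 window a GC box from -23 to -18 and no TATA match, and the Tnfrsf23 window a GC box from -92 to -87 and a TATA match from -158 to -153, positions counted from the start site. These matches did not overlap each other. CpG pairs numbered 17 in the Tnfrsf21 window, 9 in that of Tnfrsf23 and 7 in that of Tnfsf11, and the median over all 32851 RefSeq windows was 7. The NF-kB consensus and the AP-1 motif TGANTCA were also searched, and neither matched in these 3 windows. Among all windows 13.6% held the TATA motif, 35.7% the GC box, 8.46% the NF-kB consensus and 7.81% the AP-1 motif. Windows were found for 25 of the 30 members, 29 windows in all. Of these windows 5 held the TATA motif, 13 the GC box, 4 the NF-kB consensus and 5 the AP-1 motif. The windows with the AP-1 motif belong to 4 genes, because overlapping windows of Tnfsf13b hold the same site.

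Among the ligands, Tnfsf11 differed most between the lines. It encodes RANKL, the ligand that drives osteoclast formation and is made by osteoblasts, stromal cells and activated T cells. Its log2 values were 5.47, 4.74 and 5.38 in AC29 (replicates 13, 14 and 15) and 9.78, 9.84 and 9.75 in AB1 (replicates 4, 5 and 6). All 3 AB1 arrays stood far over the floor and all 3 AC29 arrays under it. The log2 difference was -4.59 ± 0.17 (SE; adjusted p = 5.24e-08), which makes Tnfsf11 at least 13.1-fold higher in AB1 when AC29 is set at the floor. A second probe set showed the same order, at 5.25, 5.10 and 5.09 in AC29 and 8.69, 7.98 and 8.28 in AB1, with a difference of -3.17. By the size of its log2 difference the gene ranked 113 of 18193, although the order of such large differences depends on values under the floor.

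The receptors of RANKL did not show a difference of that size. Tnfrsf11a, which encodes the signalling receptor RANK, read 6.31, 6.23 and 6.51 in AC29 and 6.80, 6.59 and 6.64 in AB1, all within reach of the floor. The lines did not overlap, and the difference of -0.33 ± 0.10 passed the adjusted p (0.0306) without reaching 2-fold. It no longer passed without AC29 replicate 13 (adjusted p = 0.0852), AC29 replicate 14 (0.0756), AB1 replicate 4 (0.123) or AB1 replicate 6 (0.0667). Its other probe set differed by -0.66 and was above the floor in AB1 alone. Tnfrsf11b, which encodes the secreted decoy osteoprotegerin, was not above the floor on any array (means of 4.93 in AC29 and 5.32 in AB1).

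Tnfsf9 was the other ligand that differed. It encodes the CD137 ligand, which costimulates T cells and is found on antigen-presenting cells and some tumours. Its values were 7.35, 7.44 and 7.53 in AC29 and 8.23, 8.21 and 7.99 in AB1. Every AB1 array read higher than every AC29 array, and the 1.63-fold difference (log2 -0.71 ± 0.10 SE; adjusted p = 0.000323) stayed under the 2-fold minimum. The receptor gene Tnfrsf9, which encodes CD137, lay on the same side at 6.77, 6.22 and 6.74 in AC29 and 7.61, 7.34 and 7.38 in AB1 (-0.86 ± 0.15; adjusted p = 0.00159). Its 3 probe sets were unequal. One passed the call rule at -2.05, with 4.32, 4.01 and 4.59 in AC29 and 6.64, 6.38 and 6.05 in AB1, and another, under the floor on all arrays, differed by 0.011.

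The TNF gene itself was near the floor in both lines. Its values were 6.22, 6.12 and 6.39 in AC29 and 6.19, 6.12 and 6.14 in AB1, which overlap (log2 difference 0.093 ± 0.094; adjusted p = 0.505). The 95% interval of that difference ran from -0.12 to 0.30. The other 8 ligands were not above the floor on any array. They are Lta and Ltb, the lymphotoxins of lymphoid organ development, Fasl, the ligand of the death receptor Fas, Tnfsf4 and Tnfsf8, the ligands of OX40 and CD30, Tnfsf10, which encodes the death ligand TRAIL, Tnfsf13b, the B-cell survival factor BAFF, and Tnfsf14, the LIGHT cytokine. None of these 8 passed the adjusted p.

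**Figure D2:**
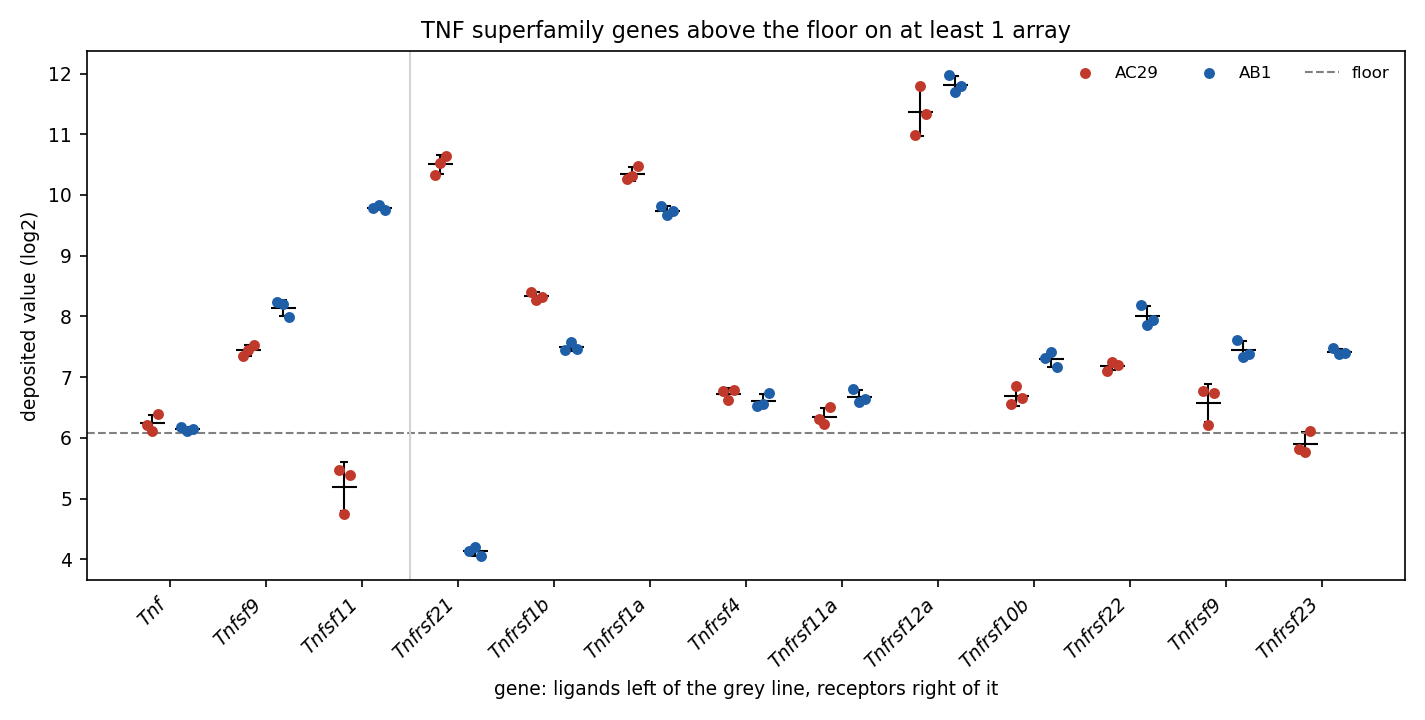
Deposited log2 values of the 13 TNF superfamily genes above the floor on at least 1 array, with AC29 arrays in red to the left and AB1 arrays in blue to the right for each gene. Points are single arrays, black bars are the mean and SD of 3, and the dashed line is the floor of 6.07. Tnfsf11 and Tnfrsf21 lie on opposite sides of the floor in the lines, in opposite directions.

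Among the receptors, the death domain receptors went in both directions. Tnfrsf21 encodes death receptor 6, known in mice for restraining T-helper and B-cell responses and for a part in axon pruning. It read 10.34, 10.53 and 10.65 in AC29 and 4.13, 4.21 and 4.05 in AB1. The AB1 arrays lay under the floor and the AC29 arrays well over it. With AB1 set at the floor, Tnfrsf21 was at least 21.6-fold higher in AC29 (log2 difference 6.37 ± 0.10 SE; adjusted p = 3.60e-10), a difference that ranked 30 of 18193. The second probe set read 8.66, 8.56 and 8.92 in AC29 and 5.07, 5.30 and 5.35 in AB1, a difference of 3.47 and at least 6.24-fold.

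Tnfrsf1a, which encodes the main death domain receptor for TNF and lymphotoxin, was well above the floor in both lines. It read 10.26, 10.31 and 10.48 in AC29 and 9.82, 9.66 and 9.73 in AB1. AC29 was 1.53-fold higher (0.61 ± 0.09 SE; adjusted p = 0.000612). Tnfrsf1b, the other TNF receptor, lacks a death domain and binds TRAF2. Its values were 8.41, 8.27 and 8.32 in AC29 and 7.45, 7.58 and 7.47 in AB1. AC29 was 1.78-fold higher (0.83 ± 0.09; adjusted p = 4.76e-05), and its other probe set differed by 0.52. Neither TNF receptor overlapped between the lines and neither reached 2-fold.

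Tnfrsf10b, the mouse death receptor for TRAIL, lay toward AB1. Its values were 6.55, 6.85 and 6.65 in AC29 and 7.32, 7.42 and 7.16 in AB1, without overlap. The fold toward AB1 was 1.53 (-0.61 ± 0.11 SE; adjusted p = 0.00152). The second probe set gave -0.52. Tnfrsf25, the death receptor for TL1A, the product of Tnfsf15, lay under the floor in both lines.

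The TRAIL decoy receptors Tnfrsf22 and Tnfrsf23, which in mice bind TRAIL without a death domain, were also higher in AB1. Tnfrsf23 read 5.82, 5.77 and 6.12 in AC29 and 7.47, 7.38 and 7.39 in AB1, so that 1 AC29 array was above the floor and all AB1 arrays were. It was 2.85-fold higher in AB1 (-1.51 ± 0.11 SE; adjusted p = 3.81e-06), or 2.54-fold with the AC29 mean, which lay under the floor, set at it. Tnfrsf22 read 7.11, 7.26 and 7.19 in AC29 and 8.20, 7.86 and 7.95 in AB1, a 1.76-fold difference that passed the adjusted p (0.000213) but not the 2-fold minimum. Of its other probe sets one passed the call rule at -1.49 and one differed by -0.65. The genes are adjacent among the protein-coding genes of the RefSeq table (GRCm38.p6), next to Tnfrsf26, and are related in sequence, and cross-hybridisation between their probe sets was not tested.

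No other pair of measured neighbours in that gene order held a called gene. Tnfrsf1b adjoins Tnfrsf8 and Tnfrsf4 adjoins Tnfrsf18, and both Tnfrsf8 and Tnfrsf18 lay under the floor. Ltb, Tnf and Lta lie side by side, and none of them was called. Tnfsf9 is separated from Tnfsf14 by Cd70 alone, and neither Tnfsf14 nor Cd70 was above the floor.

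**Figure D3:**
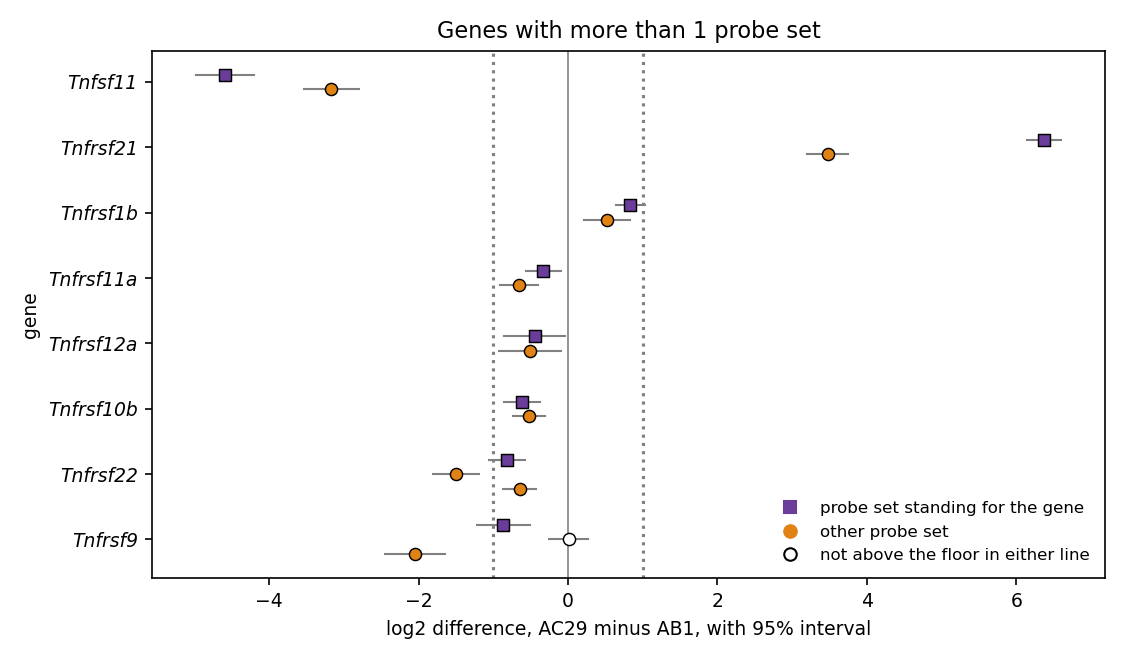
Log2 difference, AC29 minus AB1, of each probe set of the 8 genes above the floor that had more than 1, with 95% intervals; dotted lines mark 2-fold. Purple squares are the probe set with the highest mean, which stands for the gene, orange circles are the others, and the open circle was not above the floor. All 9 of the other probe sets above the floor lie on the same side as the square, and 4 of them passed the call rule.

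Receptors that signal through TRAF adaptors included Tnfrsf12a, which encodes Fn14, a small receptor induced by growth factors and bound by TWEAK. It was far over the floor in both lines, at 10.99, 11.79 and 11.33 in AC29 and 11.98, 11.69 and 11.79 in AB1, and the lines overlapped. The difference of -0.45 ± 0.18 had an adjusted p of 0.0855. AC29 replicate 14, the array that stood apart, was the high one, and without it the difference was -0.65 (adjusted p = 0.00327), still under 2-fold. Without AC29 replicate 13, the low one, the difference was -0.26 (adjusted p = 0.259). Tnfrsf4, the T-cell receptor OX40, read 6.77, 6.63 and 6.79 in AC29 and 6.53, 6.56 and 6.74 in AB1, overlapping and near the floor (0.12 ± 0.09; adjusted p = 0.378).

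Receptors of lymphocytes made up most of the remainder and lay under the floor in both lines. They are the BAFF receptors Tnfrsf13b, Tnfrsf13c and Tnfrsf17 of B cells, Tnfrsf8 (CD30), Tnfrsf14 (the herpesvirus entry mediator) and Tnfrsf18 (GITR), together with Tnfrsf19, known as TROY from the nervous system. Values of the 17 members under the floor lay between 3.75 and 5.89, and 3 of them, Tnfrsf13c (0.37), Tnfrsf25 (0.31) and Tnfrsf11b (-0.39), passed the adjusted p with these small differences. Of the 13 members above it, 10 reached a mean over 7.23, the 99th percentile of the olfactory and taste probe sets, in at least 1 line, and Tnf, Tnfrsf4 and Tnfrsf11a did not.

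Family members that carry other symbols were measured for 11 genes, and 1 was called. Eda2r, the receptor for an ectodysplasin isoform, read 3.97, 3.99 and 4.29 in AC29 and 6.59, 6.90 and 6.88 in AB1, at least 1.64-fold higher in AB1 (adjusted p = 1.76e-07). All its AB1 values lay under 7.23, the 99th percentile of the smell and taste receptor probe sets, so they are weak evidence of expression. The filter on dim genes removed Eda2r from the fit. The lymphotoxin beta receptor gene Ltbr was far over the floor in both lines (9.80 ± 0.22 in AC29 and 9.24 ± 0.11 in AB1, SD, n = 3 each; log2 difference 0.56, adjusted p = 0.00519) and stayed under 2-fold. Relt (8.07 and 7.96), Ngfr (6.31 and 6.05) and Eda (6.32 and 6.19) differed by at most 0.26 between AC29 and AB1. Fas, Cd40, Cd40lg, Cd27, Cd70 and Edar lay under the floor in both lines. Of these, Fas differed by -0.84 without overlap (adjusted p = 0.00184 in limma), and the others by -0.14 to 0.22.

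Adaptors and enzymes downstream of the receptors passed the 2-fold rule toward AB1 alone. Of 34 measured, 5 were called toward AB1 and 0 toward AC29 by limma with the 2-fold minimum, against 5.82% and 5.12% of all genes. By adjusted p alone 9 were higher in AC29 and 15 in AB1, and at an unadjusted p under 0.05 the counts were 10 and 17. Their median difference was -0.21. Of the 34, 33 were above the floor on some array, and among all such genes 8.7% were called toward AB1 and 7.68% toward AC29. Traf1, an adaptor induced by NF-kB, read 4.50, 4.38 and 4.24 in AC29 and 7.97, 8.01 and 7.93 in AB1, at least 3.73-fold higher in AB1 (adjusted p = 5.02e-09). Cflar, which encodes the caspase-8 inhibitor FLIP, was 4.51-fold higher in AB1 (7.65 ± 0.04 in AC29 and 9.82 ± 0.12 in AB1; adjusted p = 9.85e-08). Cradd, a death domain adaptor of caspase-2, was 2.19-fold, Traf5 2.10-fold and the necroptosis kinase Ripk3 2.07-fold higher in AB1. On the mean of its probe sets Traf5 differed by -0.65 and did not pass the 2-fold minimum. Tab2, an adaptor of the kinase TAK1 (10.37 in AC29 and 10.66 in AB1), and Tax1bp1, a partner of the deubiquitinase A20 (11.05 in AC29 and 10.71 in AB1), did not reach 2-fold.

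In the list of NF-kB subunits and inhibitors, the call rule in limma gave 3 of 14 genes toward AC29, and 0 toward AB1, against 5.12% and 5.82% of all genes. By adjusted p alone 5 were higher in AC29 and 3 in AB1, and at an unadjusted p under 0.05 the counts were 7 and 3. Their median difference was 0.22. All 14 were above the floor on some array, and among all such genes 7.68% were called toward AC29 and 8.7% toward AB1. Bcl3, a nuclear partner of NF-kB, read 8.15, 8.30 and 8.36 in AC29 and 5.77, 5.68 and 5.84 in AB1, at least 4.58-fold higher in AC29 (adjusted p = 4.49e-08). Tnip1, which restrains NF-kB together with the deubiquitinase A20, was 2.40-fold higher in AC29. The subunit gene Rel was 2.03-fold higher, with 1 AB1 array above the floor, and 1.88-fold higher with the AB1 mean set at it. It also fell under the 2-fold minimum with centred arrays (log2 0.998), without AC29 replicate 15 (0.95) and without AB1 replicate 6 (0.89). Nor was Rel called with array weights. Rela (10.17 in AC29 and 9.90 in AB1) and the inhibitor Nfkbia (10.76 and 11.25) did not reach 2-fold.

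Genes that TNF and NF-kB are known to induce were split between the lines. Of 24 measured, 8 were called toward AC29 and 4 toward AB1, against 5.12% and 5.82% of all genes, and by adjusted p alone the counts were 11 and 6. Their median difference was 0.16. Of the 24, 18 were above the floor on some array, and among all such genes 7.68% were called toward AC29 and 8.7% toward AB1. The neutrophil chemokine Cxcl5 (at least 8.66-fold), the adhesion molecules Icam1 (at least 2.62-fold) and Vcam1 (7.95-fold) and the hyaluronan-binding protein Tnfaip6 (at least 2.25-fold) were higher in AC29. Icam1 read 7.52, 7.41 and 7.46 in AC29 and 4.88, 3.78 and 4.24 in AB1. Tnfaip2 was 6.79-fold and the cyclooxygenase Ptgs2 6.59-fold higher in AB1, followed by the chemokine Ccl5 at 2.00-fold and the protease Plau at least 1.41-fold. Plau did not pass without AB1 replicate 4 (log2 -0.72), nor did Ccl5 without any 1 of AC29 replicates 13 and 14 and AB1 replicates 4 and 5 (-0.98 to -0.94). Nor was Ccl5 called with array weights. Sod2 (11.34 in AC29 and 10.36 in AB1) and Ier3 (10.79 and 11.36) did not reach 2-fold. Among macrophage markers, Cd14 was 3.39-fold higher in AB1 and Cd68 differed by -0.65 (adjusted p = 0.00015), whereas Lyz2 differed by 0.48 (adjusted p = 0.0284) and Csf1r by 0.10 (adjusted p = 0.413). The 7 macrophage markers summed to between 36.9 and 37.7 in AC29 and between 39.2 and 39.5 in AB1 on the log2 scale. Ptprc, Adgre1 and Itgam among them lay under the floor in both lines. The part of such markers in the response genes was not tested.

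Proteases and regulators that release ligands and receptors from the surface were above the floor for all 9 genes, with 3 called toward AC29 and 1 toward AB1, against 5.12% and 5.82% of all genes. By adjusted p alone 4 were higher in AC29 and 4 in AB1, and the median difference was 0.18. Among all genes above the floor on some array, 7.68% were called toward AC29 and 8.7% toward AB1. Timp3, the inhibitor of ADAM17, the main protease that sheds TNF and its receptors, read 13.30, 13.10 and 13.45 in AC29 and 7.02, 6.72 and 6.23 in AB1. AC29 was 98.8-fold higher (adjusted p = 8.84e-09). The AB1 values lay above the floor but under 7.23, the 99th percentile of the smell and taste receptor probe sets, so the size of this fold rests on dim values. The sheddase Adam10 was 2.45-fold and Rhbdf2, which escorts ADAM17 to the surface, 2.23-fold higher in AC29. On the mean of its probe sets Adam10 differed by 0.97 and did not reach 2-fold. Furin, a convertase that activates ADAM proteases and cleaves several ligands, was 3.30-fold higher in AB1. Rhbdf1 (10.71 in AC29 and 9.90 in AB1) and the intramembrane protease Sppl2b (9.14 and 9.57) stayed under 2-fold.

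**Figure D4:**
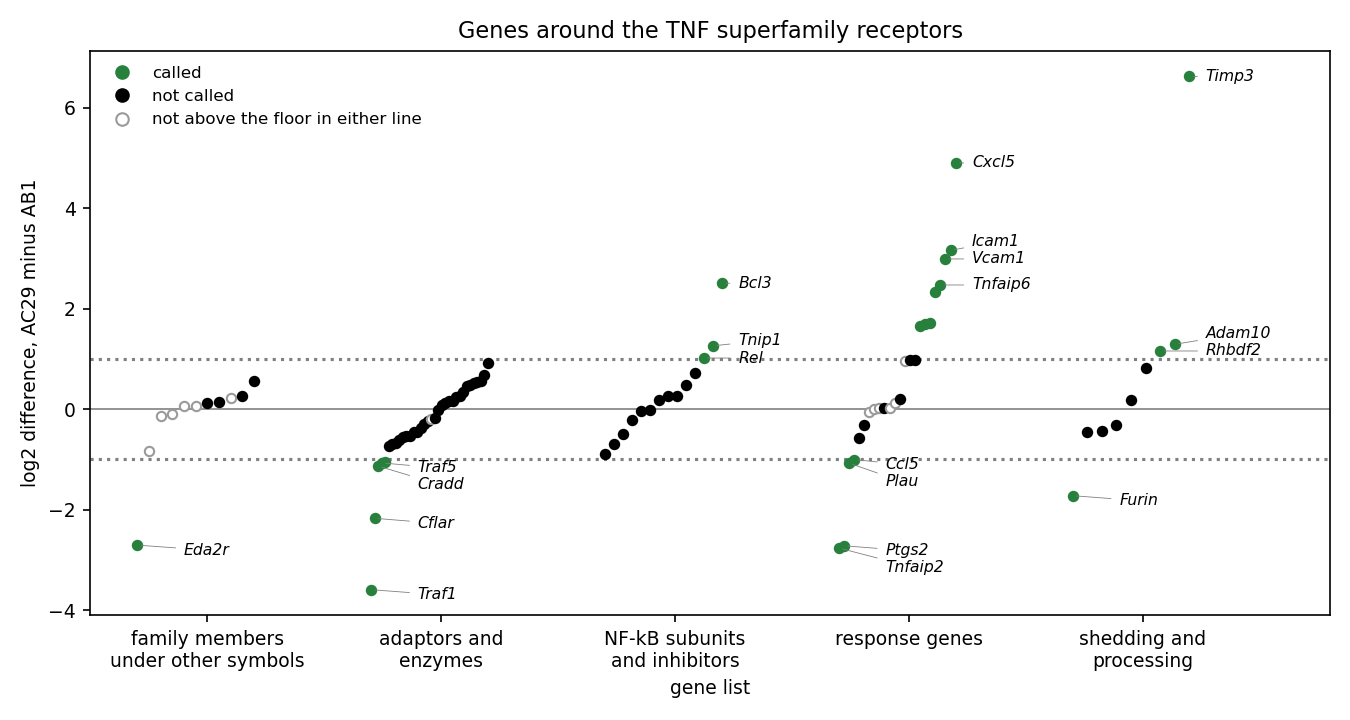
Log2 difference, AC29 minus AB1, of every measured gene in the 5 lists around the receptors, ordered within each list; dotted lines mark 2-fold. Green points are called, black points are not, and open points lay under the floor in both lines. The called genes given in the text carry their symbols, except Ripk3. The called adaptors lie below 0 and the called NF-kB genes above 0, while the response genes lie on both sides.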

How the data were processed

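Total RNA of 6 flasks was labelled as biotinylated cRNA and hybridised to Affymetrix arrays, 1 per flask, according to the protocols. The authors deposited values for 45101 probe sets on every array, taken here as log2. GCOS, RMA and Partek 6.4 are named in the submitters' processing notes, with no roles. RMA compresses differences of dim and very bright probe sets. Probe-level intensities, detection calls and scan dates were not used here, and the number of arrays limits the precision (median SE of a difference 0.0999).

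The 64 control probe sets were left out. Gene symbols came from the platform annotation (34945 probe sets with 1 symbol, 932 with several, 9160 with none), and 3 probe sets that name a family member beside another gene were not assigned. Of several single-symbol probe sets, the brightest by its mean over all 6 arrays stood for the gene. Differences are AC29 minus AB1. With line as the only term, a model was fitted to all non-control probe sets with limma 3.58.1 in R 4.3.3 (lmFit, eBayes, 2-sided, 8.92 total degrees of freedom), and p-values were adjusted by the Benjamini-Hochberg method over 18193 genes, or over all probe sets where single probe sets are given. The call rule was an adjusted p under 0.05 with an absolute log2 difference of at least 1. Where no array of a line exceeded the floor, the fold is a lower bound against it; where that held for both lines, none is given. The fit was tested on simulated data.

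The members and the gene lists were chosen with earlier results of these data known. All members could be named; the named genes of a list were the 4 largest calls in each direction and the 2 brightest without a call, all of the family members under other symbols, and Ripk3 as the fifth of 5 calls, chosen after its value was seen. Alternatives were quantile normalization, centring, leaving out dim genes, other probe set choices, other limma settings and thresholds, other floors, and leaving out each array.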

Additional observations from a re-analysis of the deposited data

How the results depend on the processing

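The counts of called members, 1 higher in AC29 and 2 higher in AB1, were the same, with the same genes, under quantile normalization, centring, a filter on dim genes, averaging the probe sets of each gene, leaving out probe sets open to cross-hybridisation, trend and robust eBayes, array weights, limma's treat, an adjusted p under 0.01 and leaving out each array in turn. With no minimum difference they were 5 and 8, since smaller differences then pass. Each of the 13 members above the floor kept its direction and its side of the call rule in all 182 combinations of member and alternative fit. Part of these outcomes was fixed in advance, so the count is no measure of robustness. Trend and robust eBayes, treat and the dim-gene filter leave the difference unchanged. In them no member could change direction, and none under 2-fold could become called. Leaving out single arrays gave Tnfrsf21 differences from 6.30 to 6.46, Tnfsf11 from -4.73 to -4.36 and Tnfrsf23 from -1.62 to -1.45. Tnfrsf21 differed by 4.92 with probe sets averaged and by 3.47 after the cross-hybridisation filter. Of the other probe sets of members above the floor, 1 dim one of Tnfrsf9 turned its gene's direction (0.011). With the floor at the 90th or 99th percentile the lower bound for Tnfrsf21 was 28.2-fold or 9.68-fold, and for Tnfsf11 it was 17.2-fold or 5.90-fold. Against a 2-fold difference in treat, 2 of the 5 called adaptors and 1 of the 3 called NF-kB genes passed. Of the response genes, all 8 called toward AC29 passed and 2 of the 4 called toward AB1. In the shedding list 1 of the 3 genes called toward AC29 passed and 0 toward AB1. No paired analysis was possible because the lines share no replicate number. With the lower line's mean set at the floor, an alternative chosen after seeing the data, the fold was 2.54 for Tnfrsf23 and 1.88 for Rel. Genes under the floor in both lines were given no fold.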
